A study of Homo sapiens with 4 samples.

Results

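The genes described here are 37 genes of the NRF2 pathway, of glutathione metabolism and of redox defence, out of 34203 gene names on the array. They were taken as all probes whose deposited gene name was one of these 37, which gave 67 probes. RNA came from OE33, an established cell line of human esophageal adenocarcinoma, on Illumina HumanHT-12 v4 bead arrays. The control group of 2 arrays received a negative control microRNA precursor, and the miR-223 group of 2 arrays received a precursor of hsa-miR-223. Both precursors were transfected at 10 nM with a cationic lipid reagent, which the study names for the miR-223 cells, and all cells were grown in RPMI 1640 with fetal bovine serum and harvested at 24 h. The 2 arrays of a group are called biological replicates in the study's description, which does not say whether arrays with the same number share an experiment. All arrays carry RNA of 1 cell line in culture, and no untransfected cells are among the groups.

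NRF2, encoded by NFE2L2, is a transcription factor that is held at a low level by KEAP1, an adaptor that delivers it to a ubiquitin ligase. When oxidants or electrophiles modify KEAP1, NRF2 accumulates, pairs with small MAF proteins and binds antioxidant response elements in its target genes. Those genes make glutathione, reduce thioredoxin and quinones, supply NADPH and store iron, and NRF2 activity is often raised in tumours of the upper digestive tract. miR-223 is a microRNA best known from myeloid cells, and a microRNA lowers messenger RNAs that pair with its seed. The sequences of both mature arms are shown because the transfection could raise either, and the level of neither arm is known here. These sequences are from RefSeq (GRCh38.p14), on the plus strand of chromosome X, and capitals mark the seed, bases 2 to 8. The 3p arm lies at chrX:66018937-66018958 and the 5p arm at chrX:66018895-66018916. The labels do not name an arm.
hsa-miR-223-3p: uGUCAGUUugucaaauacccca
hsa-miR-223-5p: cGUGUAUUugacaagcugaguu

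Of the 36 measured genes, 29 had differences within 0.3 of 0 on the log2 scale between miR-223 and control cells. Both NRF2 regulators were among them. The median absolute difference was 0.14, beside 0.17 over all tested genes, so small differences were not particular to this set. GCLM, which encodes the modifier subunit of the rate-limiting enzyme of glutathione synthesis, had the lowest difference of the 36, 1.75-fold lower in miR-223 cells. The NRF2 target NQO1 was 1.40-fold lower, and the mitochondrial superoxide dismutase SOD2 was 1.45-fold higher. AKR1B10, an aldo-keto reductase, was 1.49-fold higher on a dim probe. None of these passed limma after adjustment over all probes, where the lowest adjusted p on the array was 0.909.

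The median raw signal of the 4 arrays lay between 114.5 and 118.4 intensity units, and 18036 to 18916 of 47321 probes were detected (detection p under 0.05 against the negative control beads). Each signal rested on a median of 22 beads, and 2 arrays in each group limit the precision of every value. Of 10 epithelial and columnar markers, 9 were detected on all arrays, among them EPCAM, KRT8 and KRT19, and KRT20 on none. The summed raw signal of these markers was 77079.1 to 78152.6 in control and 73460.1 to 81687.5 in miR-223 arrays. Of 8 squamous markers 6 were detected on no array, TP63 and KRT5 among them, and the sums were 2644.8 to 2927.6 in control and 3135.2 to 3802.0 in miR-223 arrays, with KRT13 the brightest. Fibroblast markers gave sums of 836.1 to 880.2 in control and 838.8 to 865.5 in miR-223 arrays. Of these 7 markers VIM was detected on all arrays, 3 collagen genes on 1 array each, and DCN, LUM and PDGFRB on none. Leukocyte markers gave 1421.4 to 1616.2 and 1468.0 to 1575.3, in the same order. Of these 9 markers CD14, CD68 and LYZ were detected on all arrays, 2 on 1 array each, and 4 on none, PTPRC among them. The squamous sums did not overlap between the groups, and their part in the results below was not tested.

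At baseline, in control cells, 36 of the 37 genes had a probe that was detected on every array. The exception was AKR1C1, a hydroxysteroid dehydrogenase, whose 1 probe was detected on no array, with raw signals of 89.4 and 97.1 in control and 108.3 and 102.8 in miR-223 cells. Probes with a detection p close to 0.5 lie at the middle of the negative control beads. Their median signal, 105.7 to 108.2 over the 4 arrays, is the background used here. Signals were set against this background and not against each other, since probes differ in how well they bind. Of the 36 genes, 11 had a control signal over 50 times the background, 14 were between 10 and 50 times, 9 between 2 and 10 times and 2 under 2 times. Among those over 50 times the background were TXN, FTL, GSTP1, PRDX1, TALDO1, SOD1 and TKT. The 2 near background were AKR1B10 at 1.31 times and GPX2 at 1.92 times. Both probes were detected above the negative control beads on every array.

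The regulators came first in the comparison of miR-223 with control cells. NFE2L2 had log2 intensities of 9.64 and 10.14 in control replicates 1 and 2 and of 9.94 and 10.14 in miR-223 replicates 1 and 2. The groups overlapped, and the difference, miR-223 minus control, was 0.15 ± 0.25 (SE) on the log2 scale. KEAP1 had 9.63 and 9.06 in control and 9.25 and 9.63 in miR-223 cells, with a difference of 0.096 ± 0.27 (SE). Its second detected probe gave -0.17, so the probes did not share a sign, and a further KEAP1 probe was detected on no array. For neither regulator was a difference detectable, and changes well above these SE could also have been missed. Even GCLM, at -0.81 ± 0.29 (SE), had a limma adjusted p of 0.909.

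GCLM showed the clearest separation of the 4 genes of glutathione synthesis and recycling. Its log2 intensities were 10.42 and 9.97 in control and 9.72 and 9.05 in miR-223 cells, or raw signals of 1352.4 and 1159.7 against 894.0 and 651.7. Each miR-223 array was below each control array. The standard errors of these signals over the beads of an array were 106.9 and 69.2 in control and 117.1 and 36.5 in miR-223 cells, from 13 to 23 beads. The control mean was 10.19 ± 0.32 (SD, n = 2), and the miR-223 mean was 9.39 ± 0.47 (SD, n = 2), for a difference of -0.81 ± 0.29 (SE), with a limma adjusted p of 0.909. A second, dimmer GCLM probe gave -0.42 ± 0.29 (SE) with overlapping groups. In the authors' deposited table, which averages the probes, GCLM stood at -0.65, the lowest value of the 37 genes. When 1 array was left out, the GCLM difference was -0.58 without control replicate 1 and -1.03 without control replicate 2. It was -1.14 without miR-223 replicate 1 and -0.47 without miR-223 replicate 2. Between arrays of the same number it was -0.70 for replicate 1 and -0.92 for replicate 2.

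The other subunit of the same enzyme, the catalytic GCLC, did not share the sign of GCLM. It had 9.76 and 9.21 in control and 9.79 and 9.32 in miR-223 cells, a difference of 0.072 ± 0.28 (SE). GSS, the glutathione synthetase, was at -0.040 ± 0.22 (SE), and GSR, which reduces oxidised glutathione, at 0.24 ± 0.25 (SE). The GSR groups overlapped, with 9.69 and 9.15 in control and 9.63 and 9.70 in miR-223 cells. Whether GCLM differs from GCLC in its response was not tested.

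**Figure D1:**
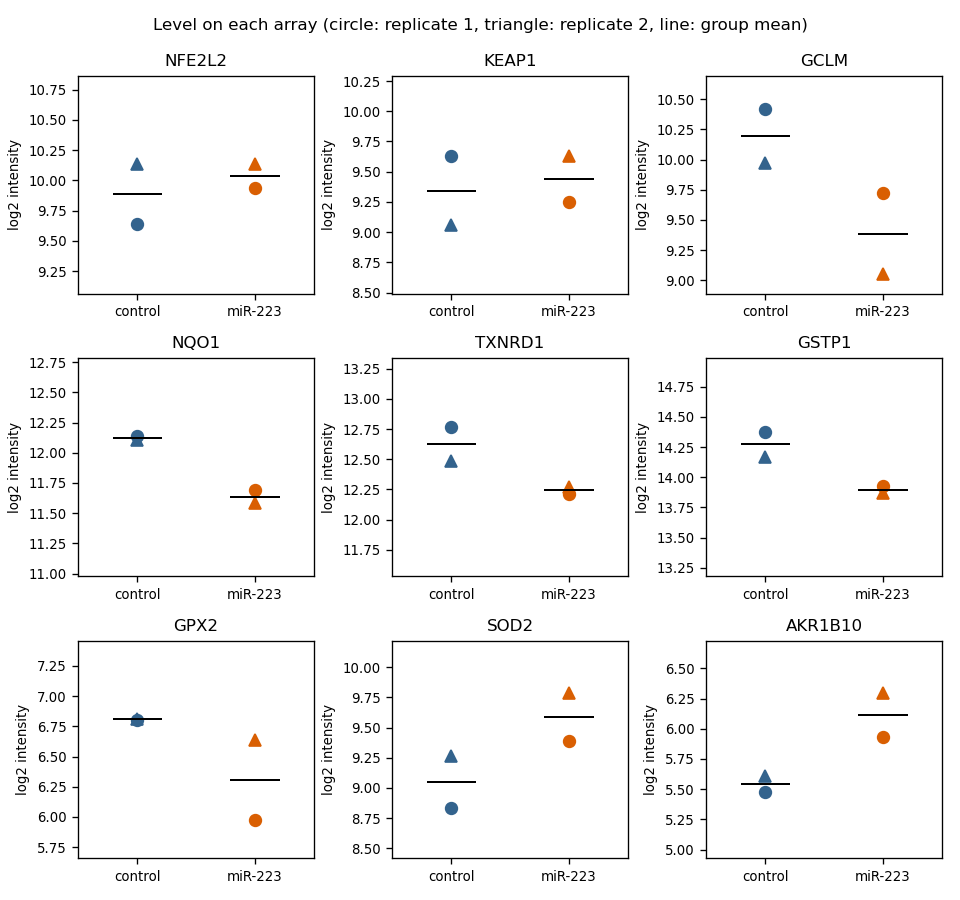
Level of 9 of the genes on each array, as normalised log2 intensity (vertical axis, the same span in every panel), in control and miR-223 cells. Circles are replicate 1, triangles replicate 2, and lines group means. GCLM, NQO1, TXNRD1, GSTP1 and GPX2 lie lower on both miR-223 arrays, SOD2 and AKR1B10 higher, and the groups of NFE2L2 and KEAP1 overlap.

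In the thioredoxin system, electrons pass from NADPH through thioredoxin reductase to thioredoxin and on to the peroxiredoxins, which remove peroxides. TXNRD1, the cytosolic reductase and an NRF2 target, had 12.76 and 12.49 in control and 12.21 and 12.27 in miR-223 cells. Each miR-223 array was below each control array, with a difference of -0.38 ± 0.22 (SE) and a limma adjusted p of 0.958. A second probe gave -0.32 with overlapping groups, and without control replicate 1 the first was at -0.25. TXN itself, at 14.54 and 14.63 in control and 14.53 and 14.63 in miR-223 cells, differed by 0.00069 ± 0.22 (SE), a value whose sign turned under cyclic loess. SRXN1, the sulfiredoxin that restores over-oxidised peroxiredoxins and also an NRF2 target, was at -0.061 ± 0.25 (SE).

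The 6 peroxiredoxins had differences between -0.16 and 0.24. PRDX6, the peroxiredoxin with a single catalytic cysteine, was the lowest at -0.16 ± 0.22 (SE), with 12.16 and 12.32 in control and 12.09 and 12.06 in miR-223 cells, and its groups did not overlap. PRDX5 was the highest at 0.24 ± 0.28 (SE), but its 3 probes ranged from -0.069 to 0.24. The values were -0.0014 for PRDX1, 0.14 for PRDX2, -0.10 for PRDX3 of the mitochondrion and 0.090 for PRDX4 of the endoplasmic reticulum. Each of these is within its SE, and the sign of PRDX1 turned under median scaling and under cyclic loess. A second tested PRDX2 probe gave 0.26 ± 0.23 (SE), with both miR-223 arrays above both control arrays.

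Among the enzymes that remove superoxide and peroxides, SOD2 and GPX2 stood apart and in opposite directions. SOD2, the manganese superoxide dismutase of mitochondria and a known target of NF-kB, had 8.83 and 9.26 in control and 9.39 and 9.78 in miR-223 cells. Both miR-223 arrays lay above both control arrays, with a difference of 0.54 ± 0.26 (SE; limma adjusted p = 0.929), and a second, dim SOD2 probe gave 0.61 ± 0.25 (SE), or 0.33 with the background left in, with groups that also did not overlap. The SOD2 difference was 0.32 with control replicate 1 left out and 0.34 with miR-223 replicate 2 left out. Between arrays of the same number it was 0.55 for replicate 1 and 0.52 for replicate 2. SOD1, its cytosolic counterpart, had 13.23 and 13.23 in control and 13.23 and 13.22 in miR-223 cells, a difference of -0.0063 ± 0.21 (SE), whose sign turned under the same scalings as that of PRDX1.

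GPX2, the glutathione peroxidase of the gastrointestinal epithelium and an NRF2 target, had 6.80 and 6.81 in control and 5.98 and 6.64 in miR-223 cells. Its difference of -0.50 ± 0.27 (SE; limma adjusted p = 0.937) rested mostly on miR-223 replicate 1, without which it was -0.17. Without background correction it was -0.25, since the probe is dim. GPX1, the most widespread member of that family, was at 0.11 ± 0.22 (SE), and GPX4, which reduces lipid peroxides and guards against ferroptosis, at -0.056 ± 0.22 (SE). Catalase, encoded by CAT, had 9.80 and 10.17 in control and 9.83 and 9.60 in miR-223 cells, a difference of -0.27 ± 0.24 (SE) with overlapping groups. It was -0.089 without control replicate 2 and -0.16 without miR-223 replicate 2, and a second CAT probe gave -0.16.

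NQO1, a quinone reductase and one of the most used readouts of NRF2 activity, had tight replicates. It was at 12.14 and 12.11 in control and 11.69 and 11.58 in miR-223 cells, or raw signals of 4348.1 and 4708.8 against 3233.0 and 3373.7. The group means were 12.12 ± 0.025 (SD, n = 2) and 11.64 ± 0.081 (SD, n = 2), with a difference of -0.49 ± 0.22 (SE). The difference was several times the SD of each group, but an SD of 2 arrays is itself imprecise. The limma adjusted p was 0.912, and its SE is drawn toward the spread shared by all probes. A second, dim NQO1 probe gave -0.32 ± 0.25 (SE). Leaving out any 1 array kept NQO1 between -0.54 and -0.43.

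HMOX1, which encodes the inducible heme oxygenase and answers to NRF2 and to its competitor BACH1, did not share the sign of NQO1. It had 8.36 and 7.62 in control and 8.44 and 7.83 in miR-223 cells, with a difference of 0.15 ± 0.32 (SE), the largest SE of the 36 genes. Both arrays numbered 1 were above both arrays numbered 2.

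The aldo-keto reductases reduce carbonyls and steroids, and several are strong NRF2 targets in human cells. The 3 measured ones of the set had positive differences. Of those outside the set, named after their values were seen, AKR1B1 was at -0.35 ± 0.22 (SE). Each of its miR-223 arrays was below each control array. AKR1C4 was at 0.36 ± 0.28 (SE) with overlapping groups. AKR1A1 was at 0.098 ± 0.22 (SE) with groups that did not overlap, and another of its probes gave -0.099. AKR1B10 had 5.48 and 5.61 in control and 5.93 and 6.30 in miR-223 cells, a difference of 0.57 ± 0.23 (SE; limma adjusted p = 0.909), with both miR-223 arrays above both control arrays. Its raw signals, 133.9 and 145.6 in control and 147.6 and 176.0 in miR-223 cells, were close to background, and without background correction the difference was 0.22. AKR1C3 had 10.67 and 10.49 in control and 10.84 and 10.82 in miR-223 cells, at 0.25 ± 0.22 (SE), and AKR1C2 was at 0.17 ± 0.25 (SE) with overlapping groups. Of 6 AKR1C2 probes 1 was detected, and the AKR1C genes are close in sequence, so which of them a probe reads is uncertain.

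The NADPH-supplying enzymes and the ferritins showed no detectable difference. In the pentose phosphate pathway PGD was at -0.13 ± 0.22 (SE), TKT at 0.16 ± 0.23 (SE) and TALDO1 at 0.073 ± 0.22 (SE). The malic enzyme ME1 was at 0.070 ± 0.22 (SE). A second, dim TALDO1 probe stood at -0.37 and was detected on both control arrays and on no miR-223 array. Of the ferritin chains, which store iron, FTH1 was at 0.13 ± 0.23 (SE) and FTL at -0.17 ± 0.22 (SE), with both FTL probes at -0.17. Ferritin and several other abundant redox genes have processed pseudogenes that a probe may also read.

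Among the 4 glutathione-conjugating enzymes, GSTP1 had the lowest difference. This pi-class transferase had 14.37 and 14.17 in control and 13.92 and 13.87 in miR-223 cells, a difference of -0.38 ± 0.22 (SE; limma adjusted p = 0.958) with groups that did not overlap. MGST1, a microsomal transferase, had 11.94 and 11.79 in control and 11.65 and 11.56 in miR-223 cells, at -0.26 ± 0.22 (SE), and its 3 detected probes ranged from -0.39 to -0.14. GSTM3, at 0.14 ± 0.22 (SE), and GSTO1, at -0.0044 ± 0.24 (SE), did not differ by more than their SE, and GSTO1 changed sign under median scaling.

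**Figure D2:**
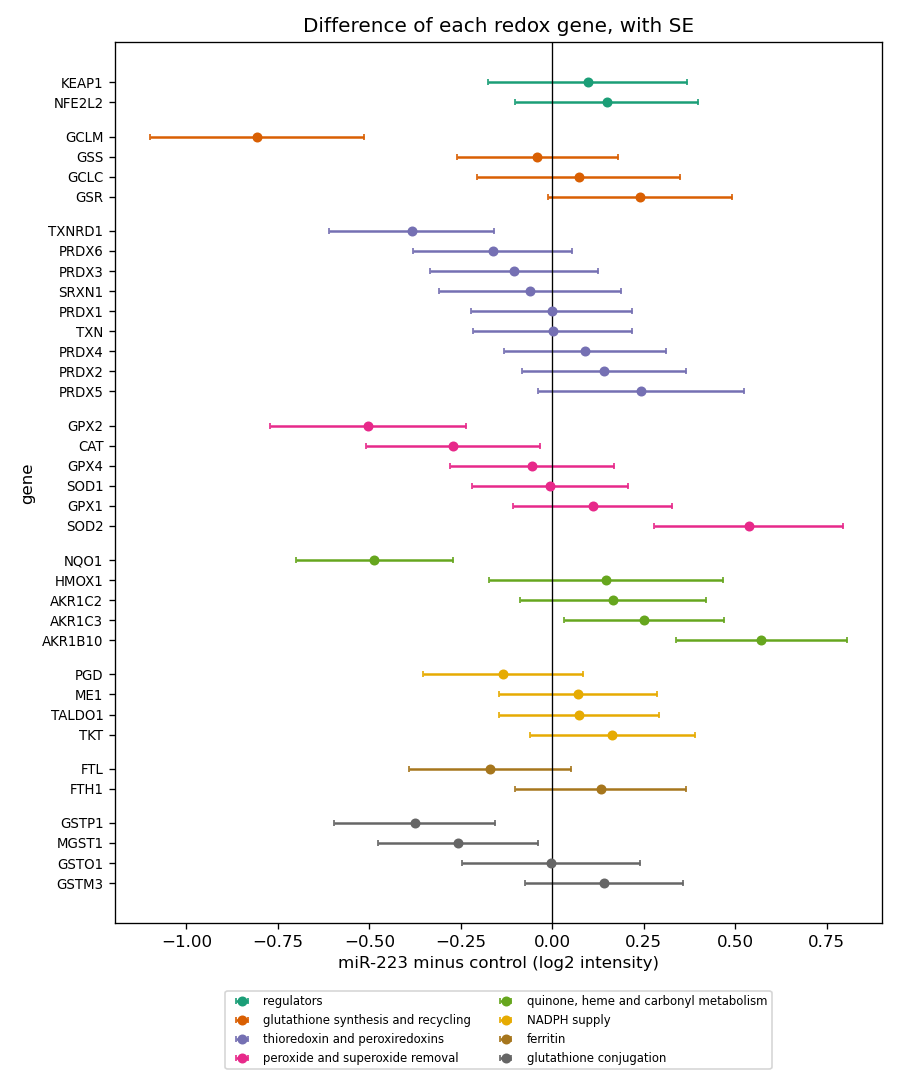
Difference of each of the 36 measured genes, miR-223 minus control in log2 intensity (horizontal axis), with its SE as bars, grouped and coloured by role. GCLM at -0.81 is the lowest and AKR1B10 at 0.57 the highest, and most other genes lie within their SE of 0.

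Taken as a list, the 36 measured genes had a median difference of 0.035, beside 0.000096 over all 14332 tested genes, with 19 positive and 17 negative values. By limma, 0 passed at an adjusted p under 0.05, as did 0% of all tested genes. At an unadjusted limma p under 0.05, 1 gene was higher (AKR1B10), beside 2.58% of all genes, and 1 was lower (GCLM), beside 2.85%. This count of 2 was 0 without control replicate 1, 1 without miR-223 replicate 2 and 5 without background correction. At least 0.5 apart on the log2 scale were 4 genes (GCLM, AKR1B10, SOD2 and GPX2), beside 8% of all genes. Both miR-223 arrays lay above both control arrays for 5 genes, beside 16.3% of all genes, and below them for 9 genes, beside 17.2%. The 5 are AKR1B10, SOD2, AKR1C3, GSTM3 and GPX1, and the 9 are GCLM, NQO1, GPX2, TXNRD1, GSTP1, MGST1, FTL, PRDX6 and PGD. By role, the medians ran from -0.13 for the 4 glutathione-conjugating enzymes to 0.17 for the 5 measured enzymes of quinone, heme and carbonyl metabolism. For 17 genes more than 1 probe was tested: the probes shared a sign in 13 and not in 4 (KEAP1, TXN, PRDX5 and TALDO1).

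**Figure D3:**
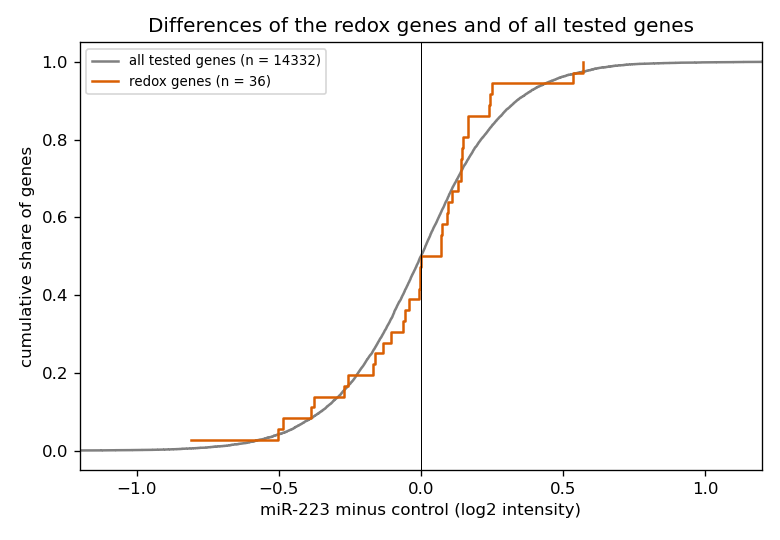
Cumulative share of genes (vertical axis) at or below a given difference, miR-223 minus control in log2 intensity (horizontal axis), for the 36 redox genes and for all 14332 tested genes. The 2 curves run close together and meet at about 0, with medians of 0.035 and 0.000096.

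The core of the antioxidant response element was looked for in promoters, as TGACNNNGC on either strand, because several NRF2 targets lay lower on both miR-223 arrays. The windows ran from 250 bases before to 50 after each RefSeq start (GRCh38.p14), and 29 of the 37 genes had at least 1 window. GSS, GSR, PRDX1, PRDX6, SOD1, HMOX1, AKR1B10 and FTH1 had none. Their differences, of both signs, are therefore missing from the counts by motif below. Of their 41 windows 10 held the motif, or 24.4%, beside 13.3% of all 35116 promoter windows. The genes were KEAP1, GCLM, TXNRD1, GPX2, PGD, ME1, GSTP1, GSTO1 and MGST1, and the window of NQO1 held none. The stretches below show the motif in capitals, with 10 bases on each side, on the strand of the gene. They are from 5 genes that were lower on both miR-223 arrays and from ME1, which was not. Only 1 stretch is given for each gene, although the windows of TXNRD1 and ME1 hold others. MGST1, also lower on both miR-223 arrays, and KEAP1 and GSTO1, which were not, are left out. In GCLM, GPX2 and PGD the motif is on the other strand, so its reverse complement is in capitals. The positions are chr1:93909446-93909474 (minus strand) for GCLM, chr14:64942849-64942877 (minus) for GPX2, chr12:104215670-104215698 (plus) for TXNRD1, chr11:67583736-67583764 (plus) for GSTP1, chr1:10398853-10398881 (plus) for PGD and chr6:83431170-83431198 (minus) for ME1.
GCLM: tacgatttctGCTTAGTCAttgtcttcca
GPX2: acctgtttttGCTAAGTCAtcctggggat
TXNRD1: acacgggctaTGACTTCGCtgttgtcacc
GSTP1: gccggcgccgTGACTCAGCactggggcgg
PGD: cctcgccgggGCAATGTCAtctaggtgct
ME1: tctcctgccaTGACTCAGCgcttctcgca

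Of the 9 genes with the motif, 7 had a negative difference, with a median of -0.26 and a range of -0.81 to 0.096. Of the 19 measured genes whose windows held no motif, 6 had a negative difference, with a median of 0.090. Over all tested genes with a window the median was 0.0040 for 1719 genes with the motif, 49.2% of them negative, and 0.0072 for 7057 without, 49.1% negative. These are counts of letters in a short window, with no test. The search was prompted by these same differences, so no conclusion can be drawn from the split. Whether NRF2 has a part in it was not tested. GSTO1, 1 of the 7, changed sign under median scaling, to 0.042. NQO1, at -0.49, is among the genes without the motif, and ME1, KEAP1 and GSTO1, at 0.070, 0.096 and -0.0044, are among those with it.

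The groups differed by more than the means of the arrays numbered 1 and 2 did for 20 of the 36 genes. Over all 14332 tested genes this held for 6434. HMOX1, GCLC and SRXN1 were not among the 20. Both arrays numbered 1 lay above both arrays numbered 2 for 7 of the 36 genes, beside 20.4% of all tested genes, and below them for 4, beside 22.9%. The 7 were HMOX1, GCLC, SRXN1, FTH1, TKT, ME1 and GPX4, and the 4 were NFE2L2, PRDX5, GSTO1 and TXN. For HMOX1, replicate 1 minus replicate 2 was 0.75 in control and 0.61 in miR-223 cells on the log2 scale. For GCLC it was 0.55 and 0.47, for SRXN1 0.40 and 0.31, and for GCLM 0.45 and 0.67. NFE2L2 ran the other way, at -0.49 and -0.20, and KEAP1 had opposite signs in the groups, at 0.57 and -0.37.

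**Figure D4:**
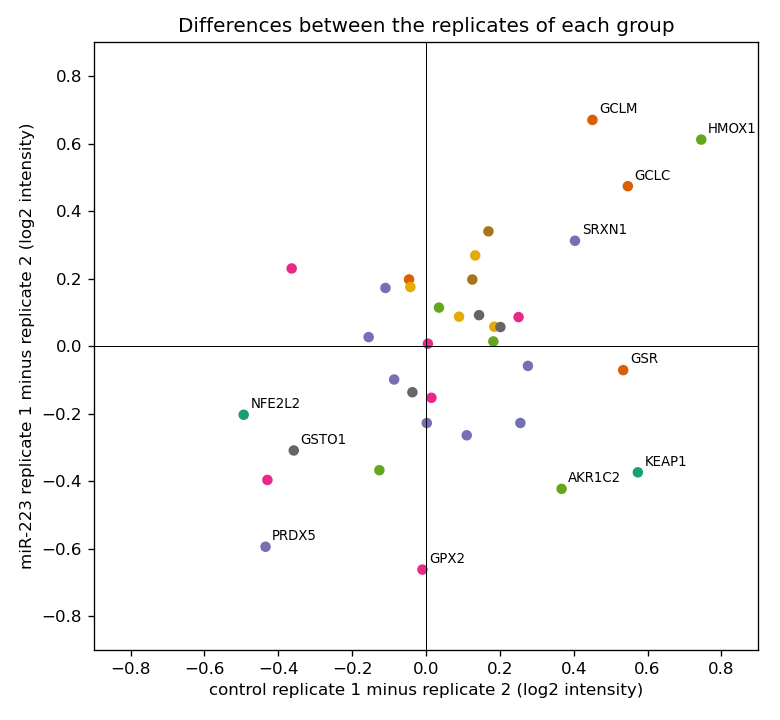
Replicate 1 minus replicate 2 in log2 intensity, in control cells (horizontal axis) and in miR-223 cells (vertical axis), 1 point for each of the 36 genes, coloured by role as in the plot of differences by role. HMOX1 (0.75 and 0.61), GCLM, GCLC and SRXN1 lie in the upper right, PRDX5 and NFE2L2 in the lower left.

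Other genes of the pathway are given next, from lists of pathway members outside the 37. Of 13 NRF2 partners and degradation factors 9 were measured, with a median of -0.058 and none at an unadjusted limma p under 0.05. MAFG, a small MAF partner of NRF2, was at -0.16 ± 0.24 (SE), SQSTM1, the autophagy receptor that binds KEAP1, at -0.15 ± 0.24 (SE) and the related factor NFE2L1 at 0.15 ± 0.31 (SE). Of 32 other NRF2 targets and detoxification genes 26 were measured, 13 positive and 13 negative, with a median of 0.0060. EPHX1, the microsomal epoxide hydrolase, had 8.55 and 8.74 in control and 8.21 and 7.40 in miR-223 cells, at -0.84 ± 0.30 (SE), or -0.44 without miR-223 replicate 2. FECH, which inserts iron to make heme, was at 0.64 ± 0.24 (SE), or 0.22 with the background left in. Its probe was detected on both miR-223 arrays but not on control replicate 1. Another FECH probe, which did not pass the detection filter, stood at -0.075. CYP4F11 was at -0.43 ± 0.22 (SE), or -0.25 with the background left in. SLC7A11, the cystine transporter that feeds glutathione synthesis, was at 0.047 ± 0.27 (SE) and was named after its value was seen.

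Of 46 other glutathione and thioredoxin genes 37 were measured, with a median of -0.015. TXNDC5, a disulfide isomerase of the endoplasmic reticulum with thioredoxin domains, had 10.87 and 11.04 in control and 11.78 and 11.58 in miR-223 cells. Its difference was 0.73 ± 0.22 (SE), 2 other probes gave 0.64 and 0.68, and both miR-223 arrays lay above both control arrays. GPX8, a peroxidase of the endoplasmic reticulum, was at -0.92 ± 0.34 (SE). The stress-induced SESN1 was at 0.51 ± 0.22 (SE), with a probe that was not detected on control replicate 1. Both probes are dim, and with the background left in, GPX8 was at -0.43 and SESN1 at 0.17. GPX8 was at -0.52 without control replicate 2 and at -0.58 without miR-223 replicate 1. Of 13 other NADPH-supplying genes 12 were measured, with a median of 0.018. MTHFD1, an enzyme of folate metabolism, had 8.52 and 8.21 in control and 7.85 and 7.38 in miR-223 cells, at -0.75 ± 0.26 (SE), while NNT and NADK were both at -0.16. None of these pathway genes passed limma after adjustment.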

How the data were processed

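Per the file headers, the authors deposited a mean bead intensity for each probe and array, with its bead standard error, bead count and a detection p-value, which moves in steps of 1 over 770. The deposited intensity values are neither normalized between arrays nor, from their lowest signals of 74.3 to 81.0, background subtracted. In the deposited value table the sorted intensity values of the arrays differ by at most 0.228%, as quantile normalization leaves them. The authors' gene table gives log2 values with a fold change for each gene. The submitters' processing notes name GenomeStudio, BeadStudio and Partek, with no role for each.

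The signals were corrected by normexp with an offset of 16 using negative control values derived from the detection p-values, quantile normalized and taken to log2 (neqc, limma 3.58.1, R 4.3.3). Probes detected (p under 0.05) on at least 2 of 4 arrays were tested, which left 18629 of 47321 probes and 55 of the 67. limma was fitted across all tested probes as a two-sided test of group, with no other term, with Benjamini-Hochberg adjustment over all of them, and the script was tested on simulated data. limma draws each SE toward a spread shared by all probes (6.21 prior degrees of freedom). The brightest tested probe stands for a gene. Gene names outside the 37 were updated through RefSeq, where 27039 probes matched a symbol, 4628 a synonym and 15654 neither. The files give neither probe sequences nor a build, so the exon a probe reads is not given.

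The members and lists were chosen with earlier results of these data known. All members are named, with array values for those at an unadjusted p under 0.05, the 6 largest differences, the regulators and others of interest, and from each further list the 3 genes with the smallest p. The alternatives were background correction, normalization, filter, variance model, probe rule, replicate block and leaving out each array.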

Additional observations from a re-analysis of the deposited data

How the results depend on the processing

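No gene of the set and no probe passed an adjusted limma p under 0.05 in any alternative without a replicate block, except 1 probe without control replicate 2 (range 0 to 1 over the arrays left out). At an unadjusted limma p under 0.05 the count of 2 genes was 1 under median scaling, 4 with a replicate block, 5 without background correction, on the authors' values, without the detection filter and with a variance trend, 6 with the block and trend together, and 0 to 3 with 1 array left out. The median difference of 0.035 was 0.097 under median scaling, 0.070 without the filter, which adds AKR1C1, -0.031 with the mean over probes, and -0.017 to 0.039 with 1 array left out. Median scaling moved the median over all probes to 0.029.

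The labels do not say that equal numbers mark a shared experiment, although deviations of same-numbered arrays correlated at 0.352 across probes. Arrays of equal number correlated at 0.9866 and 0.9875 over tested probes, and arrays of the same group at 0.9833 and 0.9841. With 1 array left out, the numbers are unequal between the groups, so any shift between the numbers enters those differences. With the replicate block alone 0 probes and 0 genes of the set were called. The replicate block with a variance trend and robust option called 188 probes and 1 gene of the set, GCLM. Its adjusted p from limma in that fit was 0.00762. Chosen after seeing the data, the replicate block without background correction called 371 probes and the block on the authors' values 402, each with 3 genes of the set (GCLM, NQO1 and SOD2) called and 5 at an unadjusted p under 0.05.

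Signs turned for values near 0. Median scaling gave GSTO1 0.042, PRDX1 0.055 and SOD1 0.076, cyclic loess gave PRDX1 0.00037, SOD1 0.021 and TXN -0.013, and the mean over probes gave KEAP1 -0.039, TALDO1 -0.15, TXN -0.024 and NNT 0.025. With 1 array left out, 19 of 36 genes kept their sign and 17 did not: AKR1C2 (-0.045 to 0.38), FTH1 (-0.038 to 0.30), GCLC (-0.20 to 0.35), GPX4 (-0.18 to 0.070), GSR (-0.027 to 0.51), GSS (-0.14 to 0.059), GSTO1 (-0.18 to 0.17), HMOX1 (-0.23 to 0.52), KEAP1 (-0.19 to 0.38), NFE2L2 (-0.098 to 0.40), PRDX1 (-0.088 to 0.085), PRDX3 (-0.23 to 0.024), PRDX4 (-0.023 to 0.20), PRDX5 (-0.054 to 0.54), SRXN1 (-0.26 to 0.14), TALDO1 (-0.015 to 0.16) and TXN (-0.049 to 0.050). Of the further genes, MAFG ranged from -0.38 to 0.055, NFE2L1 from -0.29 to 0.58 and SQSTM1 from -0.33 to 0.035. The cause of these changes was not tested. Signals near background limit AKR1B10, GPX2, CYP4F11, FECH, GPX8 and SESN1.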
